A study of Homo sapiens with 12 samples.

Results

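Of the 12 arrays made from Daoy cells, 4 shared a slide that held both culture media by the labels of the scanner output. These 4 arrays are the subject here. The scanner output gives no slide number that could be used, and a slide is here the 4 arrays with 1 shared scan time and array positions 1 to 4. P3 ACM replicates 2 and 3, from cells kept for 3 passages in astrocyte conditioned medium (ACM), lay beside P1 DMEM replicates 1 and 2, from cells kept for 1 passage in DMEM. By the same labels, the other 8 arrays lay on 2 slides that each held a single medium, so no other slide compared ACM with DMEM directly. The labels of the authors' table differ, as given below. Daoy (HTB-186) is an established human medulloblastoma (MB) line. Each passage lasted 48 h, in ACM or in DMEM with fetal bovine serum and antibiotic antimycotic, and cells were reseeded after trypsin. The ACM was supernatant drawn every few days from astrocytes of the hippocampus of newborn rats, which had been grown in DMEM with serum. The submitters describe 3 independent experiments. The design addresses what factors released by astrocytes do to gene expression of MB cells.

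On this slide medium, passage and array position moved together, since the ACM arrays were both P3 and lay in positions 1 and 2, while the DMEM arrays were both P1 and lay in positions 3 and 4. A difference between the sides is therefore called a difference between P3 ACM and P1 DMEM, and the parts of medium, passage and position in it cannot be told apart on these 4 arrays. With 2 arrays a side, p-values measure only the spread between these arrays.

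Cells take sterols from lipoproteins in their medium, or make them from acetyl-CoA. When sterols in the endoplasmic reticulum run low, SCAP carries the SREBP factors to the Golgi, where they are released to switch on both routes, while INSIG proteins hold them back. Medium that other cells have used can also differ in oxygen, lactate, metals and signalling proteins, to which hypoxia-inducible factors, metallothionein genes and the Notch, hedgehog, interferon and NF-kB pathways respond.

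Labels of these arrays conflict between the deposited sources, and groups here follow the labels of the scanner output. In the authors' table of log2 values, the columns that rank probes as these 4 arrays do carry other labels, with Spearman correlations of at least 0.999986 against 0.984 to 0.992 for the columns of their own names. Under the table's labels the arrays called here P3 ACM replicates 2 and 3 and P1 DMEM replicates 1 and 2 would be P3 ACM replicate 1 and P1 ACM replicates 3, 2 and 1, that is, all ACM. Which labels are right cannot be told from the files. The table's own columns for P3 ACM replicates 2 and 3 and P1 DMEM replicates 1 and 2 rank as arrays of another slide, and values from them are given beside the results as the table under its own labels.

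The 4 arrays were alike in brightness, with median intensities of 309.7 to 360.4 and 74.2% to 80.2% of 34127 probes well above background. P3 ACM replicate 3 stood apart. Its correlation was 0.977 with P3 ACM replicate 2 and 0.971 and 0.973 with the DMEM arrays, whereas P3 ACM replicate 2 correlated at 0.990 and 0.991 with the DMEM arrays and the DMEM arrays at 0.993 with each other. In P3 ACM replicate 3, 1705 probes lay more than 2-fold from the mean of the other 3 arrays, against 231 to 473 for the rest. The brightest probe for 28S ribosomal RNA read 6.71 in P3 ACM replicate 2, 0.98 in P3 ACM replicate 3, and 7.27 and 6.83 in the DMEM arrays. Levels here are log2 intensities minus that of each array's 75th percentile, which is thus 0 on this scale. The same probe was also low in P3 DMEM replicates 2 and 3 on another slide, at -1.69 and 3.64.

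VIM, which encodes vimentin and is known in Daoy cells, read 6.47 to 6.63 on the 4 arrays. Nestin (NES) was well above background on all of them. CDKN2A, which Daoy cells are known to have lost, was also well above background, at 1.71, 1.20, 1.58 and 1.41, so this probe goes against what is known of the line on both sides of the comparison. What else the probe may bind was not tested. Of 8 astrocyte markers, AQP4, ALDH1L1, SLC1A3, GJA1 and ALDOC were well above background on all 4 arrays and SLC1A2 on 3, but GFAP, the filament protein of astrocytes, on 1 and S100B on none (0 of 4). Of 8 microglial markers, CD68, ITGAM, TMEM119, CSF1R, PTPRC and CD14 were well above background on all 4 arrays, with ITGAM at 3.68 to 4.05 the brightest, and CX3CR1 and P2RY12 on none (0 of 4).

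Of 20124 genes measured by a probe well above background on all 4 arrays, 210 were higher in P3 ACM and 160 lower at the thresholds of the study's methods, more than 2-fold with an unadjusted p of 0.05 or less. These are 1.04% and 0.795% of all genes tested. In what follows, rose and fell are used only of genes past both thresholds. Every p is two-sided from limma over all probes, and no gene (0 of 20124) passed an adjusted p of 0.05 with the Benjamini-Hochberg method, where the smallest was 0.446, while 1341 had an unadjusted p of 0.05 or less. Taking the spread between replicates from all 12 arrays, with slide as a block, 191 rose and 106 fell, again with none (0) at an adjusted p of 0.05 and 0.118 as the smallest. The ACM and DMEM arrays did not overlap for any of the 370 genes, but arrays of 19.5% of all genes were separate with ACM higher and of 19.1% with ACM lower. The median difference over all genes was -0.01.

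The genes that changed were dimmer than the rest. Their median level was -2.50 against -0.96 for all genes tested, and 39.7% of them lay among the dimmest 25% of genes tested. The ACM arrays differed in how far they moved. P3 ACM replicate 3 alone was more than 2-fold from the DMEM mean for 352 of the 370 genes, P3 ACM replicate 2 for 127, and both for 109, of which 69 were higher and 40 lower. Without P3 ACM replicate 3, 157 genes rose and 76 fell, and 118 of these 233 genes were among the 370. Without P3 ACM replicate 2, 854 rose and 789 fell. In both of these fits a single ACM array was taken to vary as the DMEM pair did. The balance of directions turned with the DMEM arrays, with 111 rising and 150 falling without P1 DMEM replicate 1 but 341 and 139 without P1 DMEM replicate 2.

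**Figure D1:**
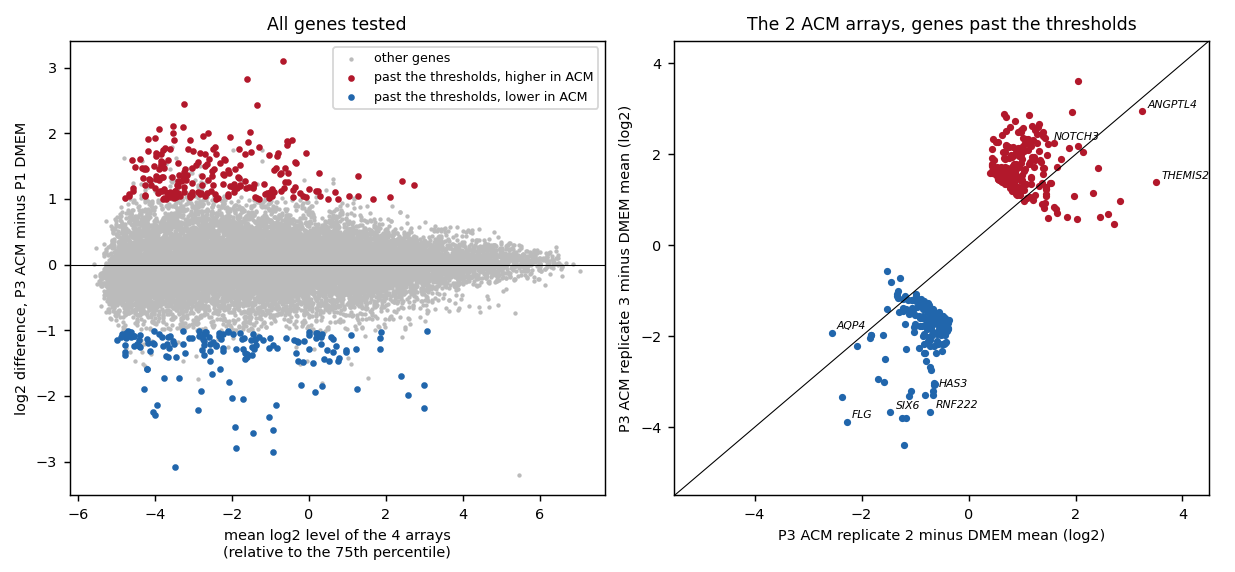
Left, the log2 difference of P3 ACM minus P1 DMEM against the mean log2 level of the 4 arrays for each gene tested, with the 210 genes that rose in red and the 160 that fell in blue. Right, for those 370 genes, the log2 difference of P3 ACM replicate 2 (horizontal) and of P3 ACM replicate 3 (vertical) from the mean of the DMEM arrays, with a line where both are equal. Most points lie farther from 0 on the vertical axis.

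The largest rise was that of ANGPTL4, a secreted inhibitor of lipoprotein lipase. It read 1.02 and 0.72 in the ACM arrays and -2.54 and -1.92 in the DMEM arrays, a log2 difference of 3.10 ± 0.27 (SE, n = 2 arrays a side, limma, adjusted p = 0.446). The ACM arrays lay close together and far above both DMEM arrays. On the other slides, P3 ACM replicate 1 exceeded P1 DMEM replicate 3 by 0.33 for ANGPTL4, across 2 slides and with no test.

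Among the other large rises, MGAT3, a glycosyltransferase that adds the bisecting sugar to N-glycans, read -0.98 and 0.59 in ACM against -4.14 and -1.91 in DMEM. Here the DMEM arrays differed from each other by more than the ACM arrays did. JPH4, a junctophilin that ties the plasma membrane to the endoplasmic reticulum, read -0.63 and 0.35 against -3.20 and -1.95. NRXN2, a presynaptic adhesion protein, read -2.19 and -2.28 against -5.25 and -3.41. The lowest level of any probe well above background was -5.53 in P1 DMEM replicate 1, so NRXN2 was near the limit of detection there. TIE1, a receptor tyrosine kinase of endothelium, read -0.65 and -0.39 against -3.21 and -1.85. All 3 had ACM arrays that agreed more closely than the DMEM arrays. CYRIA, JAKMIP1, PAX1 and AKNA rose by 1.94 to 2.06 with standard errors of 0.48 to 0.67. AKNA, at -5.62 in P1 DMEM replicate 2, was also near that limit, which was -6.09 on this array. PAX1 was no longer past the thresholds with slide as a block over 12 arrays, nor without P3 ACM replicate 3 (difference 1.30) or without P1 DMEM replicate 1 (1.01). THEMIS2, an adaptor of immune cells, had ACM arrays far apart, with -0.97 in P3 ACM replicate 2 and -3.09 in P3 ACM replicate 3 against -4.71 and -4.24. The difference of P3 ACM replicate 1 from P1 DMEM replicate 3 crosses the other 2 slides and has no test. It was -0.69 for MGAT3, -0.32 for NRXN2, -0.33 for CYRIA and -1.16 for PAX1. It was 0.49 for JPH4, 1.61 for TIE1, 0.36 for JAKMIP1, 0.13 for THEMIS2 and 0.02 for AKNA.

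**Figure D2:**
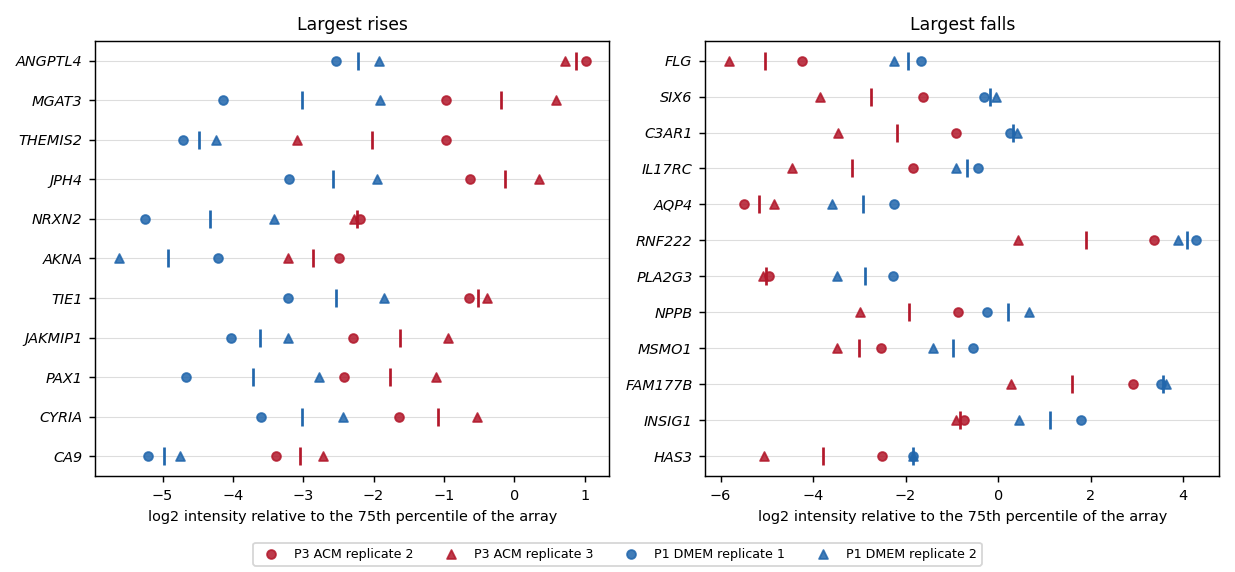
Log2 intensity minus each array's 75th percentile for the largest rises (left, 11 genes) and falls (right, 12 genes) among protein-coding genes. Each point is an array, red for P3 ACM and blue for P1 DMEM, circles and triangles are the replicates in the legend, and vertical bars are means of 2 arrays. The red points for SIX6, C3AR1, IL17RC, RNF222, FAM177B and HAS3 lie far apart.

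The falls were of 2 kinds. FLG, the epidermal protein filaggrin, fell furthest, from -1.66 and -2.25 in DMEM to -4.23 and -5.83 in ACM (difference -3.08 ± 0.51, limma, adjusted p = 0.696), although its other probes differed by -0.46 and -1.21. AQP4, the water channel of astrocyte endfeet, read -5.48 and -4.85 in ACM against -2.26 and -3.59 in DMEM. PLA2G3, a secreted phospholipase, read -4.97 and -5.10 against -2.28 and -3.49. The lowest level of any probe well above background was -5.64 and -6.00 on the ACM arrays, so AQP4, PLA2G3 and, in P3 ACM replicate 3, FLG were near the limit of detection there. Under the table's own labels AQP4 and PLA2G3 differed the other way, by 0.59 and 0.61. Across the other 2 slides, with no test, P3 ACM replicate 1 differed from P1 DMEM replicate 3 by -1.41 for FLG, -1.11 for AQP4 and -0.26 for PLA2G3.

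In the second kind, the low values came mostly from P3 ACM replicate 3, the array with the low 28S reading. SIX6, a homeobox factor of the eye field, read -1.63 and -3.85 in ACM against -0.30 and -0.05 in DMEM. C3AR1, the receptor for complement C3a, read -0.91 and -3.46 against 0.25 and 0.41. IL17RC, a subunit of the IL-17 receptor, read -1.85 and -4.47 against -0.43 and -0.92. RNF222 read 3.37 and 0.42 against 4.28 and 3.89, and FAM177B read 2.91 and 0.28 against 3.51 and 3.63. HAS3, a hyaluronan synthase, read -2.51 and -5.06 against -1.85 in both DMEM arrays, and NPPB, which encodes brain natriuretic peptide, -0.86 and -2.98 against -0.24 and 0.67. The gap between the ACM arrays exceeded 2 log2 units in all 7 genes. In DMEM on another slide, where 28S was low in P3 DMEM replicates 2 and 3, the P3 minus P1 difference was -3.18 for SIX6, -2.63 for C3AR1, -2.97 for RNF222, -2.23 for FAM177B, -1.79 for IL17RC, -1.39 for NPPB and -0.50 for HAS3. On the slide of P1 ACM, where P3 ACM replicate 1 was the P3 array, that difference ran the other way for SIX6 (0.99), C3AR1 (0.83), HAS3 (0.78) and FAM177B (0.72), and it was 0.05 for IL17RC, 0.03 for RNF222 and -0.10 for NPPB. P3 ACM differed from P3 DMEM, in the fit of 12 arrays, by 0.61 for SIX6, 0.12 for C3AR1, 0.78 for RNF222 and 0.25 for FAM177B, opposite in sign to the falls, and by -0.69 for IL17RC, -0.74 for NPPB and -1.43 for HAS3, and none (0 of 7) was past the thresholds. With the spread of all 12 arrays and slide as a block, SIX6, IL17RC, RNF222, FAM177B and HAS3 no longer passed for P3 ACM against P1 DMEM either. RNF222, FAM177B and HAS3 did not pass without P3 ACM replicate 3 (-0.71, -0.67 and -0.66), without P1 DMEM replicate 1 (-1.99, -2.04 and -1.93) or without P1 DMEM replicate 2 (-2.38, -1.92 and -1.93), nor did IL17RC without P1 DMEM replicate 1 (-2.23) and NPPB without P1 DMEM replicate 2 (-1.68). P3 ACM replicate 1 minus P1 DMEM replicate 3 crosses 2 slides and has no test. It was 0.27 for SIX6, 0.52 for C3AR1, 0.36 for IL17RC, 0.78 for FAM177B and 2.04 for HAS3. For RNF222 it was -0.49 and for NPPB -0.97. The part of the 28S reading in these falls was not tested.

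Enzymes of sterol synthesis were lower in both ACM arrays. Of 18 enzymes, all measured, 7 fell and none (0) rose, against 0.795% and 1.04% of all genes, 17 had a lower mean in ACM, and for 15 both ACM arrays were below both DMEM arrays, as for 19.1% of all genes. The median difference was -0.89, against -0.01 over all genes, and it was -0.83 in P3 ACM replicate 2 and -0.92 in P3 ACM replicate 3. Unlike the falls that rested on P3 ACM replicate 3, both ACM arrays were low. At least 16 of the 18 enzymes were lower in the mean whichever single array was left out. The median was -0.58 when P1 DMEM replicate 1 was left out, but -1.10 when P1 DMEM replicate 2 was. P1 DMEM replicate 1 was the higher of the DMEM arrays for most of these enzymes.

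Among the early steps, HMGCS1, which makes HMG-CoA, read -0.70 and -0.05 in ACM against 1.30 and 0.19 in DMEM (difference -1.12 ± 0.41, limma, adjusted p = 0.696). MVK, which phosphorylates mevalonate, fell from 1.17 and 0.26 to -0.27 and -0.40. IDI1, which makes the allylic isoprene unit, read 0.29 and -0.25 against 1.86 and 1.11. At each of these steps P1 DMEM replicate 1 was the highest array, and both DMEM arrays were above both ACM arrays. HMGCS1 did not pass the thresholds with slide as a block over 12 arrays, without P3 ACM replicate 2 (-0.80) or without P1 DMEM replicate 1 (-0.56), and MVK not without P3 ACM replicate 3 (-0.98) or P1 DMEM replicate 1 (-0.59).

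At the branch toward sterols, FDFT1, squalene synthase, read 1.40 and 1.30 in ACM against 2.70 and 2.05 in DMEM. LSS, which closes the ring to lanosterol, read 0.38 and 0.24 against 1.87 and 1.36 (difference -1.30 ± 0.24, limma, adjusted p = 0.696), and its second probe differed by -0.91. MSMO1, a sterol methyl oxidase, was the largest fall of the pathway, from -0.55 and -1.41 in DMEM to -2.54 and -3.49 in ACM (difference -2.03 ± 0.41, limma, adjusted p = 0.696). On another slide MSMO1 read -2.5 in P1 DMEM replicate 3 and -2.0, -2.5 and -3.0 in the P3 DMEM arrays. For MSMO1, P3 ACM replicate 1 differed from P1 DMEM replicate 3 by 0.64, across 2 slides and with no test. DHCR7, which makes cholesterol from its 7-dehydro precursor, read 1.32 and 1.07 against 2.79 and 2.17. SC5D and HSD17B7 differed by -0.95 and -0.98, just under 2-fold. Without P1 DMEM replicate 1, FDFT1 (-0.70) and DHCR7 (-0.98) were no longer past the thresholds, and FDFT1 was not without P3 ACM replicate 3 (-0.97). PMVK, which differed by 0.26, and TM7SF2, which differed by -0.15, had overlapping arrays.

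**Figure D3:**
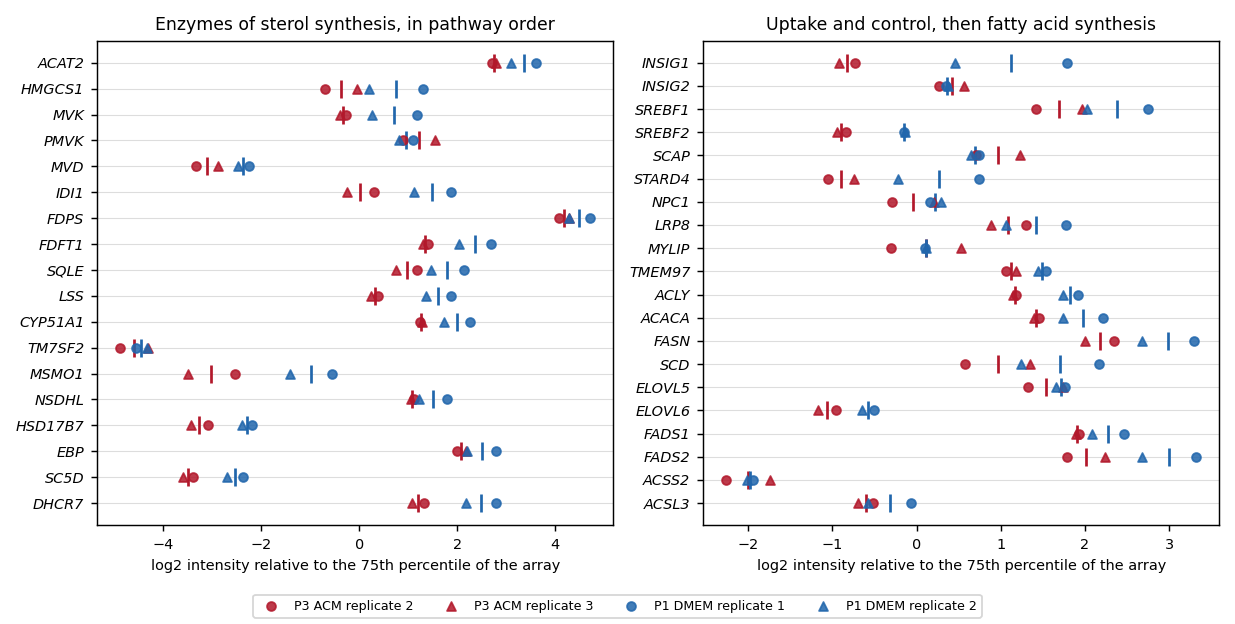
Log2 intensity minus each array's 75th percentile for enzymes of sterol synthesis (left) and for genes of uptake and control followed by fatty acid synthesis (right). Points are arrays, red for P3 ACM and blue for P1 DMEM, with bars at the means of 2 arrays. Both red points lie left of both blue points for 15 of the 18 enzymes.

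Of 10 genes of sterol uptake and SREBP control, all measured, 2 fell and none (0) rose, against 0.795% and 1.04% of all genes. The median difference was -0.35, and -0.55 without P1 DMEM replicate 2. INSIG1, which holds SREBP back and is itself a target of SREBP, read -0.73 and -0.92 against 1.78 and 0.46 (difference -1.94 ± 0.42, limma, adjusted p = 0.696). For INSIG1, P3 ACM replicate 1 differed from P1 DMEM replicate 3 by -0.09, across 2 slides and with no test. STARD4, a carrier of cholesterol inside the cell, fell from 0.74 and -0.22 to -1.06 and -0.74. In both genes the ACM arrays agreed more closely than the DMEM arrays, and without P1 DMEM replicate 1 STARD4 differed by -0.68 and was no longer past the thresholds. SREBF2, which encodes the SREBP of sterol genes, differed by -0.75 ± 0.20, under 2-fold (limma, adjusted p = 0.696), at -0.84 and -0.95 against -0.15 and -0.14. SCAP and INSIG2 had overlapping arrays.

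The promoter window of SREBF2 is shown, as SREBF2 was the member of these lists whose window held a match to the binding sequence of SREBP. The window is the 250 bases before the start of SREBF2 (GRCh38.p14, RefSeq, chr22:41832855-41833104, + strand), with a match to TCACNCCAC, the sterol regulatory element, in capitals:
SREBF2: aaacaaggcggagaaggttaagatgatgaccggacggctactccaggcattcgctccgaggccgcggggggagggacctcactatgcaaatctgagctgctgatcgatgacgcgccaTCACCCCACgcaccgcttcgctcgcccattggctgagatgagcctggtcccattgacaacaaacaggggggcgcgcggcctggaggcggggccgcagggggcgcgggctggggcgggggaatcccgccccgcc
The motif was searched on both strands, and 0.883% of 35116 promoter windows held it. Windows were at hand for 15 of the 18 enzymes and all 10 genes of uptake and control, and held it in none (0) and in 1.

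Fatty acid synthesis, which SREBP factors also drive, was lower in the mean for all 10 genes measured, with a median difference of -0.52 and 6 genes whose arrays did not overlap, against 19.1% of all genes, but none (0) fell. The median was -0.29 when P1 DMEM replicate 1 was left out, but -0.66 when P1 DMEM replicate 2 was. With P3 ACM replicate 3 left out it was -0.45, and with P3 ACM replicate 2 left out it was -0.48. FADS2, a desaturase, read 1.78 and 2.24 against 3.32 and 2.68 (difference -0.99 ± 0.29, limma, adjusted p = 0.696). FASN, fatty acid synthase, read 2.35 and 2.00 against 3.30 and 2.68. FADS2 lay just under 2-fold and FASN, at a difference of -0.81, further below it. Of 7 genes of cholesterol efflux and LXR targets, 1 rose, against 1.04% of all genes. This was APOE, with 1.24 and 2.65 in ACM against 0.74 and 0.44 in DMEM, while ABCA1 and ABCG1, the efflux pumps, had overlapping arrays. APOE was not past the thresholds without P3 ACM replicate 3 (0.65) or without P1 DMEM replicate 2 (1.21), and the median of the list was -0.19 in P3 ACM replicate 2 and 0.45 in P3 ACM replicate 3.

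The passage side of the difference was set beside these lists from another slide. There, by the scanner labels, P3 DMEM (3 arrays) lay beside P1 DMEM replicate 3. Over all genes, 61 (0.303%) were higher and 283 (1.41%) lower at P3 in that comparison. Under the table's labels that slide would hold P1 DMEM and P3 ACM arrays. The passage differences and P3 ACM minus P3 DMEM thus depend on the labels used. The median P3 minus P1 difference of the sterol enzymes there was 0.34, whereas in ACM on the third slide it was -0.15. In a fit of all 12 arrays with slide as a block, the difference of P3 ACM from P3 DMEM equals the difference on this slide minus the passage difference in DMEM. It called 232 genes (1.15%) higher and 144 (0.716%) lower, none (0) at an adjusted p of 0.05. The sterol enzymes then had a median of -1.12 with 8 of 18 called lower. ANGPTL4 differed by 3.96 (limma, adjusted p = 0.995) and INSIG1 by -2.17 (limma, adjusted p = 0.995) in this fit. The DMEM passage difference subtracted there rests on a single P1 array, and some P3 DMEM arrays had low ribosomal RNA readings. For ANGPTL4 it was -0.87, from -1.71, 0.45 and 1.11 in P3 DMEM against 0.81 in P1 DMEM replicate 3. For INSIG1 it was 0.22. In ACM the P3 minus P1 difference was 1.17 for ANGPTL4 and 0.29 for INSIG1. SIX6, C3AR1, RNF222 and FAM177B differed in the fit of all 12 arrays in the direction opposite to their falls, as given above.

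P3 ACM replicate 1 and P1 DMEM replicate 3 lay on 2 other slides, and 11 of the 18 enzymes were lower in the first of these arrays, with no test. That held for 43.0% of all genes. Under the table's own labels the median of the enzymes was 0.10 and that of the uptake and control genes -0.0030, with none (0) of them past the thresholds.

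Of 17 measured hypoxia-inducible genes, 3 rose and none (0) fell, against 1.04% and 0.795% of all genes, 16 had a higher mean in ACM, against 48.6% of all genes, and the median difference was 0.35. Without P3 ACM replicate 3 the median was 0.23. Across the other 2 slides, with no test, 13 of the 17 were lower in P3 ACM replicate 1 than in P1 DMEM replicate 3. That held for 43.0% of all genes. Apart from ANGPTL4, described above, the genes that rose on this slide were carbonic anhydrases that face the outside of the cell. CA9 read -3.38 and -2.72 in ACM against -5.20 and -4.75 in DMEM (difference 1.92 ± 0.30, limma, adjusted p = 0.696). The lowest level of any probe well above background was -5.53 in P1 DMEM replicate 1, so CA9 was near the limit of detection there. On another slide CA9 read -2.2 in P1 DMEM replicate 3 and -3.4, -2.8 and -2.2 in the P3 DMEM arrays. For CA9, P3 ACM replicate 1 differed from P1 DMEM replicate 3 by -0.31, across 2 slides and with no test. CA12 read -2.70 and -1.53 against -3.40 and -3.51, and was not past the thresholds without P3 ACM replicate 3 (0.76) or without P1 DMEM replicate 2 (1.28). VEGFA, the vascular growth factor, at 2.23 and 2.37 against 1.74 and 2.17, and NDRG1, at 0.50 and 2.00 against 0.40 and 0.56, did not pass the thresholds. Of 21 glycolytic genes measured, SLC16A3, the carrier that exports lactate, rose from 1.76 and 2.50 to 3.13 and 3.56. It was 1 of 21 that rose, against 1.04% of all genes, and GAPDH differed by -0.14. SLC16A3 was not past the thresholds without P3 ACM replicate 3 (0.99) or without P1 DMEM replicate 1 (0.85).

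The windows of ANGPTL4 and CA9 are shown because these were the hypoxia-inducible genes among the largest rises. Each is the 250 bases before the gene's start (GRCh38.p14, RefSeq), at chr19:8363905-8364154 for ANGPTL4 and chr9:35673678-35673927 for CA9, both on the + strand. Capitals mark ACGTG, the core of the hypoxia element, which appears as CACGT where it lies on the other strand:
ANGPTL4: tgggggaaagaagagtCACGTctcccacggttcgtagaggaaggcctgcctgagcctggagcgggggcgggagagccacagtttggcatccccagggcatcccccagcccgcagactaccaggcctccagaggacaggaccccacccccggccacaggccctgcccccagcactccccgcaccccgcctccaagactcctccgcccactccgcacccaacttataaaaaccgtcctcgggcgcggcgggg
CA9: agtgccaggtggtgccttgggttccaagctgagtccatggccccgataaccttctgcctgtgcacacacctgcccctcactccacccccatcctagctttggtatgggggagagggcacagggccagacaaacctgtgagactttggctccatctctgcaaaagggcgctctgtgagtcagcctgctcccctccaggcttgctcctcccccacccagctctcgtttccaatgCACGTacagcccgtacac
The core is short, and 18.5% of all windows held it on either strand, against 8 of the 14 hypoxia-inducible genes with a window. Of the largest rises with a window 2 of 7 held the core, and of the largest falls 4 of 10. Among genes of sterol uptake and control 4 of 10 held it. In CA9 it began 18 bases before the start, and in ANGPTL4 234 bases before. The window of CA9 also held a match to the sterol regulatory element.

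NOTCH3 rose within the Notch list, where it was the gene past the thresholds, 1 of 11 measured, against 1.04% of all genes that rose. It read 0.02 and 0.76 in ACM against -1.61 and -1.33 in DMEM (difference 1.86 ± 0.30, limma, adjusted p = 0.696), and P3 ACM replicate 1 exceeded P1 DMEM replicate 3 by 1.20 on the other slides. HEYL, a target of Notch, was higher in the mean by 0.83 ± 0.25, under 2-fold (limma, adjusted p = 0.696), while HES1, another target, differed by -0.29 and NOTCH1 had overlapping arrays. Of 12 hedgehog genes measured, GLI1, both effector and target of the pathway, rose from -3.61 and -3.77 to -2.77 and -1.20. It was 1 of 12 past the thresholds, against the same share of all genes. For GLI1 the ACM arrays lay far apart, though both were above the DMEM arrays, and without P3 ACM replicate 3 the difference was 0.92, short of 2-fold. The median of the Notch list was 0.43, with 0.26 in P3 ACM replicate 2 and 0.61 in P3 ACM replicate 3, and that of the hedgehog list 0.47, with 0.28 and 0.75.

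Metallothioneins and zinc carriers had lower means for all 10 genes, with a median difference of -0.62 that was -0.27 in P3 ACM replicate 2 and -1.08 in P3 ACM replicate 3. MT1G, a metal-binding protein, fell from -0.95 and -0.76 to -1.59 and -2.63. It was the gene that passed the thresholds, 1 of 10, against 0.795% of all genes that fell. With P3 ACM replicate 2 left out, all 10 were lower in the mean, and with P3 ACM replicate 3 left out, 8 were. The median P3 minus P1 difference of these genes was -0.74 in DMEM on another slide and 0.79 in ACM on the third, and the median of P3 ACM minus P3 DMEM was 0.11. MT1G did not pass with slide as a block over 12 arrays, without P3 ACM replicate 3 (-0.73) or without P1 DMEM replicate 2 (-1.15). Further genes that passed the thresholds through P3 ACM replicate 3 were RRM2, the ribonucleotide reductase subunit of S phase, at 0.53 and -0.96 against 1.07 and 1.43, and TXNRD1, thioredoxin reductase, at 0.33 and -0.80 against 0.75 and 0.98. RRM2 was 1 of 22 S phase genes, and TXNRD1 1 of 17 NRF2 targets, that fell, against 0.795% of all genes. The medians of these lists were 0.01 and 0.03. Without P3 ACM replicate 3, RRM2 and TXNRD1 differed by -0.72 and -0.54. RRM2 (-1.29) and TXNRD1 (-0.98) also did not pass without P1 DMEM replicate 2, nor TXNRD1 without P1 DMEM replicate 1 (-1.21) or with slide as a block over 12 arrays.

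**Figure D4:**
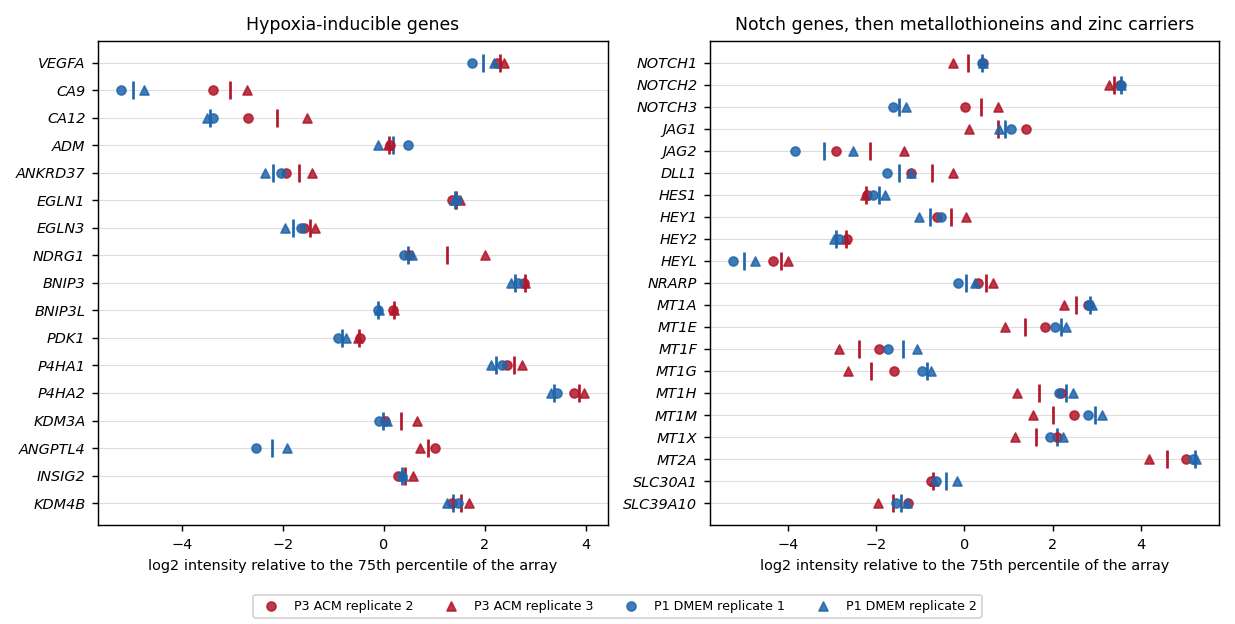
Log2 intensity minus each array's 75th percentile for hypoxia-inducible genes (left) and for genes of the Notch pathway followed by metallothioneins and zinc carriers (right). Points are arrays, red for P3 ACM and blue for P1 DMEM, with bars at the means of 2 arrays. ANGPTL4, CA9, CA12 and NOTCH3 have both red points right of both blue points.

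Of 30 interferon-stimulated genes measured, RSAD2, an antiviral enzyme, fell from -2.04 and -1.11 to -2.68 and -3.08, and no other gene passed the thresholds. This was 1 of 30, against 0.795% of all genes that fell. In this list 26 genes had a lower mean in ACM, against 10342 of all 20124 genes, with a median of -0.25. But the median was -0.098 with 17 lower without P3 ACM replicate 2, -0.39 without P1 DMEM replicate 1, -0.11 without P1 DMEM replicate 2, and 0.41 in the table under its own labels. RSAD2 did not pass with slide as a block over 12 arrays or without P1 DMEM replicate 2 (-0.84). Of 21 NF-kB targets and cytokines, CXCL2 rose, at -1.002 and -2.21 against -2.74 and -2.94, but its second probe differed by -0.08, and it did not pass with slide as a block over 12 arrays, without P3 ACM replicate 2 (0.63), without P1 DMEM replicate 1 (1.33) or without P1 DMEM replicate 2 (1.14). CXCL2 was 1 of 21 in this list that rose, against 1.04% of all genes. The ACM arrays pulled this list apart. Its median was 0.71 in P3 ACM replicate 2 and -0.71 in P3 ACM replicate 3, each relative to the DMEM mean, and IL6 read 2.27 and -0.74 in ACM against 0.45 and 0.50 in DMEM. CXCL8 did the same, at 1.32 and -1.92 against -0.52 and 0.51. FOS, an immediate early gene, rose from -1.58 and -1.46 to -0.51 and -0.23, though not with slide as a block over 12 arrays. It was the gene past the thresholds among 15 genes of MAPK output measured. Of these, 11 had a lower mean in ACM, and the median was -0.31. AKR1C1, an aldo-keto reductase, rose from -2.46 and -2.68 to -1.59 and -1.10 (0.98 without P3 ACM replicate 3, short of 2-fold), and CADM3, a neural adhesion protein, from -1.82 and -1.48 to -0.63 and 0.72. AKR1C1 was 1 of 17 NRF2 targets, and CADM3 1 of 15 neural adhesion genes and cadherins, that rose, against 1.04% of all genes. The medians of these lists were 0.03 and -0.02.

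Amino acid stress genes driven by ATF4 did not pass the thresholds, with none (0) of 30 called, against 1.04% and 0.795% of all genes. Their median was 0.01, but -0.26 in P3 ACM replicate 2 and 0.33 in P3 ACM replicate 3. The median P3 minus P1 difference was -0.87 in DMEM and 0.21 in ACM on the other slides. P3 ACM minus P3 DMEM had a median of 0.84, with 4 called higher. Across the other 2 slides, with no test, 29 of the 30 were lower in P3 ACM replicate 1 than in P1 DMEM replicate 3. Nearest to the thresholds on this slide was DDIT4, an inhibitor of mTORC1, at 0.36 and 2.15 in ACM against 0.03 and -0.0012 in DMEM (limma, adjusted p = 0.696). Its ACM arrays lay far apart and the unadjusted p missed its threshold. Lists with no gene called (0) were also those of cytosolic tRNA synthetases, chaperones of the endoplasmic reticulum, mitosis, TGF-beta, BMP, matrix, integrins, matrix proteases, stem cell markers and p53 targets, whose medians lay between -0.13 and 0.14.

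**Figure D5:**
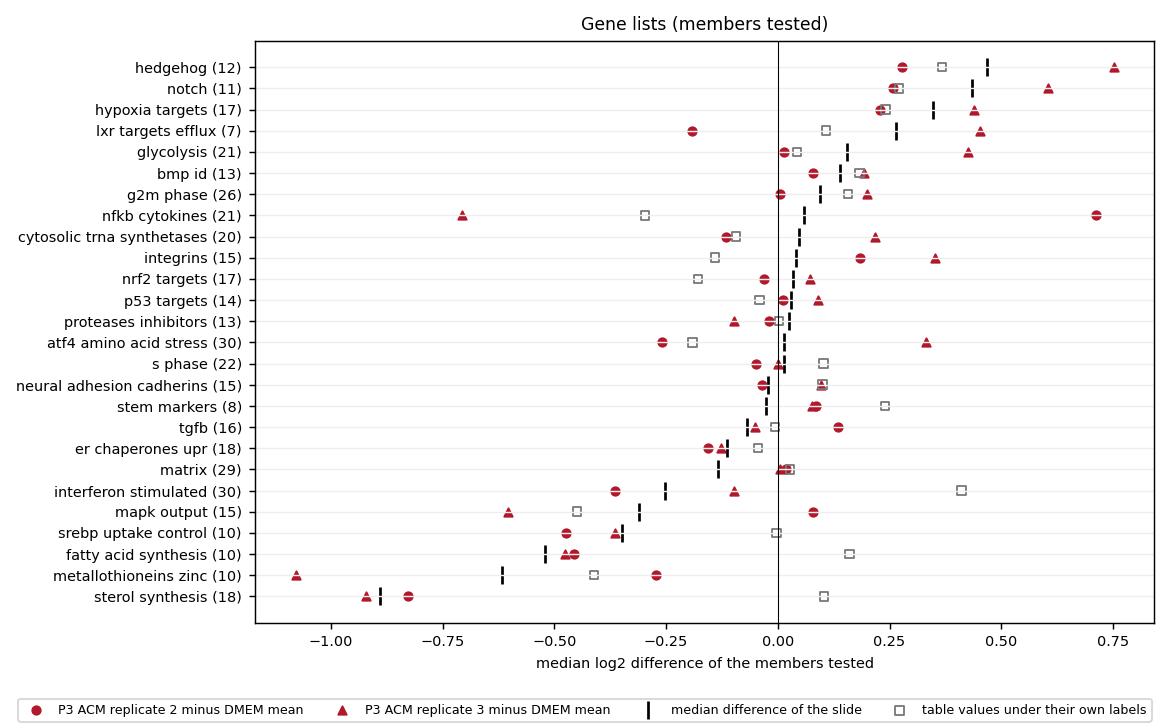
Median log2 difference of the measured members of each gene list, with the number of members after its name. Red points are P3 ACM replicate 2 (circles) and P3 ACM replicate 3 (triangles) minus the DMEM mean, black bars are the difference on the slide, and open squares are the table under its own labels. The red points lie on opposite sides of 0 for NF-kB targets and cytokines, and both lie near -0.8 to -1.0 for sterol synthesis.

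Genes the study followed up were measured here except PROM1, which encodes CD133 and was not well above background on all 4 arrays. None (0 of 7) passed the thresholds. NFASC, neurofascin, read 0.41 and 0.49 in ACM against 0.17 and 0.0037 in DMEM (difference 0.36 ± 0.20, limma, adjusted p = 0.721), and its other probes differed by -0.25 and 0.19. L1CAM, an adhesion protein of axons, differed by -0.27 ± 0.22 and NCAM2 by -0.30 ± 0.20. L1CAM averaged -5.11 over the 4 arrays, near the limit of detection, which was -5.53 in P1 DMEM replicate 1. Of the stem cell genes, SOX2 differed by 0.12 ± 0.20, POU5F1 by 0.60 ± 0.30 and NES by -0.01 ± 0.36, the second NES probe by -0.96.

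Of 5 astrocyte markers measured, AQP4 fell, as given above, but 3 had a higher mean in ACM, and the median was 0.28. Of 4 neuronal markers measured, STMN2, a neuronal tubulin regulator, rose from -3.29 and -3.44 to -2.16 and -1.04. The other 3 neuronal markers had a lower mean, and the median was -0.01. The summed linear level was 5.12 and 3.41 in ACM against 5.53 and 4.57 in DMEM for astrocyte markers, where GJA1 weighed most. For microglial markers, where ITGAM weighed most, it was 14.8 and 18.1 against 18.3 and 15.2. For oligodendrocyte markers it was 1.28 and 0.844 against 1.14 and 1.20. For neuronal markers, where TUBB3 weighed most, it was 11.2 and 11.6 against 20.8 and 14.4. In cell pellets a change in the share of a cell state and a change of RNA per cell cannot be told apart.

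The replicates left on the other slides gave the difference of P3 ACM replicate 1 from P1 DMEM replicate 3, which has no test and crosses 2 slides. It was positive for 122 of the 210 genes that rose, 58.1%, against 57.0% of all genes tested. It was negative for 67 of the 160 that fell, 41.9%, against 43.0% of all genes. The shares were near those of all genes in both directions.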

How the data were processed

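Single-colour Agilent arrays of total RNA labelled with Cy3 were used. The authors deposited scanner output with the intensity of each spot, background-corrected by Agilent Feature Extraction 11.0.1.1 and not normalized between arrays, and a table of log2 values of 30569 probes whose normalization is not given in the sources used here (its columns have nearly the same median, and each ranks probes as a scanner file does). That table served as an alternative under its own labels.

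After removal of 1377 control spots and of outlier spots, values of a probe's spots were averaged, and log2 intensity minus the array's 75th percentile was taken. The 24729 of 34127 probes well above background on all 4 arrays were kept, and a gene was counted through its brightest kept probe. Symbols came from RefSeq (GRCh38.p14) for 25767 probes (75.5%). No spot (0) was saturated. The number of arrays, 2 a side, limits the precision, and an exact permutation test of 2 against 2 could not go below a p of 0.333. Groups were compared in limma 3.58.1 (lmFit, eBayes; R 4.3.3), checked on simulated data, and p-values were adjusted across those probes by Benjamini-Hochberg. The fit of 12 arrays took slide as a block.

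The slide's arrays and the gene lists were chosen with earlier results of these data known. Some genes are not reported here and were left out of the lists and the named genes, which leaves 11 rises. Named are the 12 largest rises and falls among protein-coding genes past the thresholds whose arrays did not overlap (LOC symbols, Y-linked genes and XIST left out), genes the study names, list members past the thresholds, and first-step or control genes of each list described. Other genes named for their replicates, IL6 and CXCL8 among them, were chosen after their values were seen. The alternatives are given under the effects of processing.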

Additional observations from a re-analysis of the deposited data

How the results depend on the processing

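With 370 genes past the thresholds, quantile normalization gave 333, scaling to the median 400, outlier spots kept 371, probes well above background on all 12 arrays 370, slide as a block over 12 arrays 297, trend and robust variance 412, and the mean of a gene's probes 345. Normexp with quantile normalization gave 188 (110 higher, 78 lower), no filter on dim probes 671 (383, 288), 12 arrays with 4 group means 150 (109, 41) and the methods' t-test 33 (26, 7), of which none (0) passed Benjamini-Hochberg. The cause of these shifts was not tested. Leaving out single arrays gave 233 (without P3 ACM replicate 3) to 1643 (without P3 ACM replicate 2) genes past the thresholds and 0 to 2458 at an adjusted p of 0.05, with 23 without P3 ACM replicate 3. The table under its own labels gave 399 genes, 110 higher and 289 lower, of which 101 were among the 370, so the split between directions turned. Grouping the arrays by the table's labels, 1 P3 against 3 P1 arrays, was chosen after seeing the data, as were the list counts without single arrays, and gave 113 (90, 23). P3 ACM against P3 DMEM gave 376 genes, 312 with quantile normalization and 376 with probes well above background on all 12 arrays.

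Of 51 named genes, 36 kept their direction under every alternative run. Of the 44 of these past the thresholds, the number no longer past them was 38 with the methods' t-test, 30 in the table under its own labels (ANGPTL4 and CA9 among them), 25 with 4 group means, 12 with slide as a block, 4 with no filter on dim probes, 3 with quantile normalization, 2 with normexp, 1 with the mean of a gene's probes and 2 to 14 without single arrays, the most without P3 ACM replicate 3. Under the table's own labels the difference changed sign for AKNA (-0.12), AKR1C1 (-0.28), AQP4 (0.59), PLA2G3 (0.61), NFASC (-0.050), NCAM2 (0.055), NES (0.25), HMGCS1 (0.83), IDI1 (0.060), FDFT1 (0.23), DHCR7 (0.17), STARD4 (0.41) and RSAD2 (0.83), and for the median of sterol synthesis (0.10). With 4 group means it changed for L1CAM (0.10), NCAM2 (0.26), FUT4 (-0.16) and NES (0.0055), with normexp for NES (0.015), and without P1 DMEM replicate 1 for FUT4 (-0.048) and NES (0.29). Leaving out single arrays gave -0.048 to 0.13 for FUT4 and -0.45 (without P3 ACM replicate 3) to 0.43 (without P3 ACM replicate 2) for NES. No paired analysis was possible because the groups on the slide share a single replicate number.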
